A study of Mus musculus with 13 samples.

Results

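The 38 genes described here drive or restrain the cell division cycle: the G1 cyclins, their kinases and E2f1 (9 genes), the replication licensing and fork proteins (8), the enzymes of nucleotide supply (3), the proteins of mitotic entry and of the mitotic chromosomes (8), those of the spindle checkpoint and of mitotic exit (8), and 2 CDK inhibitors. They were chosen by gene symbol from 48709 genes, and all 38 were among the 16328 that passed the filter on low counts. RNA was measured by bulk RNA-seq in the enamel organ, the dental epithelium that makes enamel, of the lower incisors of 11-day-old mice. Het mice (5 libraries) carried 1 copy of the Tgfbr2 substitution G357W and 1 wild-type copy, which models Loeys-Dietz syndrome type II, a connective tissue disorder, and WT mice (8 libraries) were littermates with only wild-type Tgfbr2. The labels name no treatment, no transgene, no strain and no sex, and each library was taken as 1 mouse. If some libraries shared an animal, the p-values below would measure in part technical spread.

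Cells enter the cycle when cyclin D with Cdk4 or Cdk6, and then cyclin E with Cdk2, phosphorylate the retinoblastoma proteins and free E2F factors. E2F factors switch on genes of replication, and the B-Myb and FoxM1 complexes later switch on genes of mitosis. CDK inhibitors of the Cip/Kip family restrain these kinases, and in many epithelia TGF-beta signalling holds cells in G1, in part through CDK inhibitors. The mouse incisor grows throughout life: cells divide near the cervical loop at its base, leave the cycle and become the secretory and then the maturation ameloblasts that line the enamel.

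Promoters of mitotic genes often carry a cell cycle homology region (CHR) and CCAAT boxes, and those of replication genes often carry E2F sites. The CHR was searched as TTTGAA or TTTAAA, the CCAAT box as CCAAT and the E2F site as TTCCCGC or TTGGCGC, each on both strands. TTTAAA is its own reverse complement, and TTGGCGC can share letters with ATTGG, the CCAAT box read on the other strand. RefSeq promoters of GRCm38.p6, 250 bases that end just before the annotated start, were matched by symbol for 31 of the 38 genes. The CHR letters were present in 15 of 31 (48.4%), against 28.1% of the 27025 genes with a promoter in the table, and in 11 of the 14 mitotic genes with a promoter. CCAAT was present in 24 of 31 (77.4%), against 37.5% of all genes, and in 13 of the 14 mitotic genes. E2F letters were present in 9 of 31 (29%), against 6.45% of all genes, and in 3 of the 14 mitotic genes. A match is a description of the letters, not a site shown to be used. The sequences below belong to 2 genes that were highest together in 1 Het library (Mki67 and Cenpf), to 2 that were highest in 1 WT library (Top2a and Plk1), and to Mcm6, the replication gene with the most negative genotype difference. They lie at chr7:135716380-135716629 (Mki67, minus strand), chr1:189688087-189688336 (Cenpf, minus), chr11:99024190-99024439 (Top2a, minus), chr7:122159185-122159434 (Plk1, plus) and chr1:128359706-128359955 (Mcm6, minus). Capitals mark every CHR, CCAAT and E2F match on either strand.
Mki67: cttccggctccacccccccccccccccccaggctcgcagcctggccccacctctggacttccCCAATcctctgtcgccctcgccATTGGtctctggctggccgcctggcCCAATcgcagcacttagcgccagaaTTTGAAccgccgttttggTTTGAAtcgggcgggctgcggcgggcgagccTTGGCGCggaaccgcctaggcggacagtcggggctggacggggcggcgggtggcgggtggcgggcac
Cenpf: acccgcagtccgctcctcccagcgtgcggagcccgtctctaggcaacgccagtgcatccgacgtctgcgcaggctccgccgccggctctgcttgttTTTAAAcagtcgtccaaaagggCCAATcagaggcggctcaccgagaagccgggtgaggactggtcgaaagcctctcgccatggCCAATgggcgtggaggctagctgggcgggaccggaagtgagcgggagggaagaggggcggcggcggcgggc
Top2a: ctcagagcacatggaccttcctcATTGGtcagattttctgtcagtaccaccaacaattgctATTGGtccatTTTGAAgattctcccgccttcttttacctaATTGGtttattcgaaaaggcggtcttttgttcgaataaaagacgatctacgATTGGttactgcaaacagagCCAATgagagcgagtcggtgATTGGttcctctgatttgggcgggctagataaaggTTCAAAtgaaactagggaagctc
Plk1: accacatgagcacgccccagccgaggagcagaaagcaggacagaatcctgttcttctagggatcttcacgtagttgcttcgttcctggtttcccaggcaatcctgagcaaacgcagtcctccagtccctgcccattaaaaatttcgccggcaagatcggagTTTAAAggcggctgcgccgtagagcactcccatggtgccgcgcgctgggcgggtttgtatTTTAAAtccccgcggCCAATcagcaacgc
Mcm6: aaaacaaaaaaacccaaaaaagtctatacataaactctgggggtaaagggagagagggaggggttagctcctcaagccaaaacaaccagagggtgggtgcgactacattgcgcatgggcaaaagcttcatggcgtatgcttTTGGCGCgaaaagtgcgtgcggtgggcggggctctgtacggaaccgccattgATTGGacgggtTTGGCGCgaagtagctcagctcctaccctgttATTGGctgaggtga
Mki67, Top2a and Plk1 each hold 2 CHR matches and Cenpf holds 1. Mcm6 holds no CHR match and has 2 E2F matches, where Mki67 has 1.

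Total counts were 20266079 to 26122340 per library in Het and 18852382 to 26508410 in WT. The tissue label was checked against markers: the summed level of 4 secretory ameloblast genes was 192901 to 279122 CPM (counts scaled to a library of 1e6) in Het and 145267 to 287820 in WT, and that of 5 maturation ameloblast genes was 26776 to 51756 in Het and 39640 to 55042 in WT. Markers of other cells were present too, with 4458 to 12118 CPM for 7 mesenchyme genes, 174 to 360 for 6 erythroid genes and 61.9 to 133 for 6 immune genes. In such bulk samples, fewer dividing cells and less of a transcript per cell cannot be told apart. The number before the hyphen in a library's name (1, 4 or 5) is called the prefix here, and no source used here gives its meaning.

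Of the 38 genes, cyclin D2 and Cdk4 had the highest levels. The 38 genes together took 0.136% ± 0.016 of all counts (SD, n = 5) for Het and 0.134% ± 0.018 (SD, n = 8) for WT. Ccnd2, which encodes cyclin D2, held 35.3% ± 3.4 of these counts in Het and 35.8% ± 5.1 in WT. Per kilobase of annotated exon, the mean level of Ccnd2 over the 13 libraries was 51.5 CPM per kilobase (range 35.5 to 74.8), and that of Cdk4, the kinase that cyclin D activates, was 51.3 (42.6 to 60.9). These ranges overlap, so their order is not fixed, and with the length of the longest transcript Cdk4 came before Ccnd2 (81.1 and 76.5 CPM per kilobase). Next came Cdkn1b, the CDK inhibitor p27, at 16.2 CPM per kilobase (13.3 to 24.8), with no overlap with Cdk4. Outside the 38, Cdkn1a, the CDK inhibitor p21, was above all of them at 179.6 CPM per kilobase (133.8 to 216.6).

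Tyms, which makes thymidylate, ran from 10.6 to 17.04 CPM per kilobase and overlapped Cdkn1b, and with the length of the longest transcript its mean (20.4) was above that of Cdkn1b (16.2). The means that followed were 10.7 for Ccnd1 (cyclin D1), 10.24 for Cdk6, 8.28 for Rrm2, 7.32 for Ccne2 and 6.62 for Pcna, and each gene overlapped its neighbours in range. Mitotic genes had lower means than the genes named so far, as did several G1 and replication genes. Of the mitotic genes, Ccnb2 (cyclin B2) was highest at 5.46 CPM per kilobase, whereas Mki67, which encodes the proliferation antigen Ki-67, was at 0.762 (0.516 to 1.21). The lowest 3 were Bub1 at 0.573, Cdc6 at 0.468 and Cenpf at 0.462. All 38 were detected in each of the 13 libraries, with the fewest counts, 18, for Bub1 in WT 4-3.

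**Figure D1:**
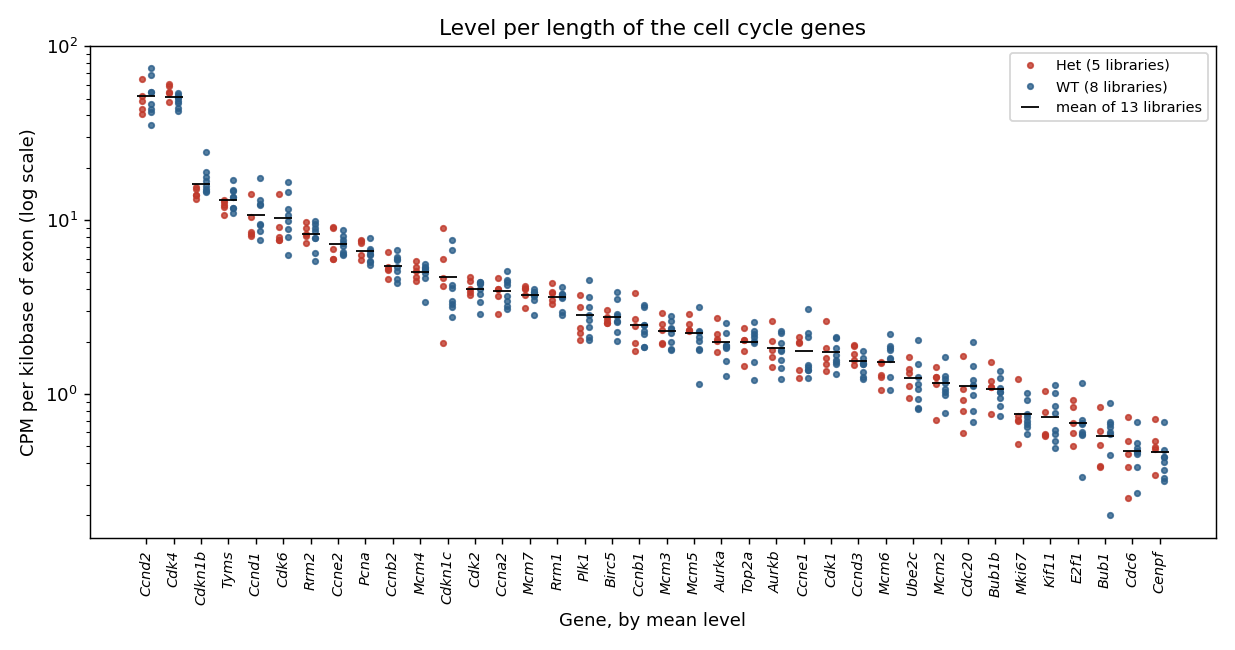
Level of each cell cycle gene in CPM per kilobase of exon (vertical log axis), with genes ordered by mean. Each point is 1 library (5 Het, 8 WT) and each line is the mean of 13 libraries. Ccnd2 and Cdk4 lie at about the same level, above all the others, and Het and WT points overlap for each gene.

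Ccnd2 had the highest mean level of the D cyclins, Cdk4 was above Cdk6, and Ccne2 was above Ccne1. The level of Ccnd2 per kilobase was 5.12 ± 0.43 times that of Ccnd1 (SD, n = 5) for Het and 4.73 ± 0.82 times (SD, n = 8) for WT. Ccnd3, the remaining D cyclin, had 1.55 CPM per kilobase by the union of its exons and 3.53 by its longest transcript. Cdk6 was at 0.174 ± 0.071 of the Cdk4 level in Het and 0.227 ± 0.086 in WT. Of the E cyclins, Ccne2 (7.32 CPM per kilobase) was above Ccne1 (1.77), and the lowest library of Ccne2 (5.95) was above the highest of Ccne1 (3.08). Cdkn1b was at 3.53 ± 2.12 times the level of Cdkn1c, the CDK inhibitor p57, in Het and at 4.30 ± 1.35 times in WT.

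Libraries were unstranded, so reads from a gene on the other strand cannot be told from those of a cell cycle gene where their exons overlap. Of the 38, 17 overlap an annotated gene on the other strand, and for 9 that partner is protein-coding. The partner had more counts for 5: Ccna2 (Exosc9), Ccnd1 (LTO1), Ccne2 (Ints8), Mcm7 (Cops6, 50634 counts against 5046 over all libraries) and Cdc20 (Elovl1, 15963 against 633). Processed pseudogenes named after Ccnb1, Ccnb2, Ccnd3, Pcna and Tyms exist elsewhere in the genome, and Pcna-ps2 (1750 counts against 4857 for Pcna) and Ccnb2-ps (1602 against 2565) had many counts. The levels of these 7 genes are therefore uncertain. Coding partners of Ccnd3 (Bysl, 2563 against 4178) and Cdk4 (Tspan31, 14488 against 51047) had fewer counts than the gene but may affect its level too. Overlap was taken over whole genes, so the length of shared exon was not measured.

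No cell cycle gene passed the test between Het and WT (edgeR quasi-likelihood test, p adjusted by Benjamini-Hochberg over the whole table, threshold 0.05): 0 of 38 were called, where the background over all genes was 0.0857% (14 of 16328). At an unadjusted p under 0.05 there was 1 of 38 (Cdkn1b), against 6.9% of all genes. DESeq2 also called 0 of 38 (0.481% of all genes), as did limma-voom (0.165%) and edgeR with the prefix as a term (0.184%). At an unadjusted p under 0.05, DESeq2 had 2 of the 38 beside 7.53% of all genes, limma-voom 1 beside 8.72%, and edgeR with the prefix as a term 4 beside 9.82%. Het and WT ranges overlapped for all 38, where they were apart for 0.49% of all genes.

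Differences were small in both directions. Of the 38 log2 fold changes (Het minus WT), 23 were positive and 15 negative, with a median of 0.041 beside -0.0044 for all genes tested, of which 49.1% were positive. They ran from -0.32 for Mcm6 to 0.26 for Mcm5, and adjusted p lay between 0.699 and 0.996. The 95% interval of the difference lay within 2-fold for all 38 and within 1.5-fold for 30, which bounds the size of a change without showing that there was none. The sign was the same in all 3 prefixes for 17 of 38, beside 36.3% of all genes.

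**Figure D2:**
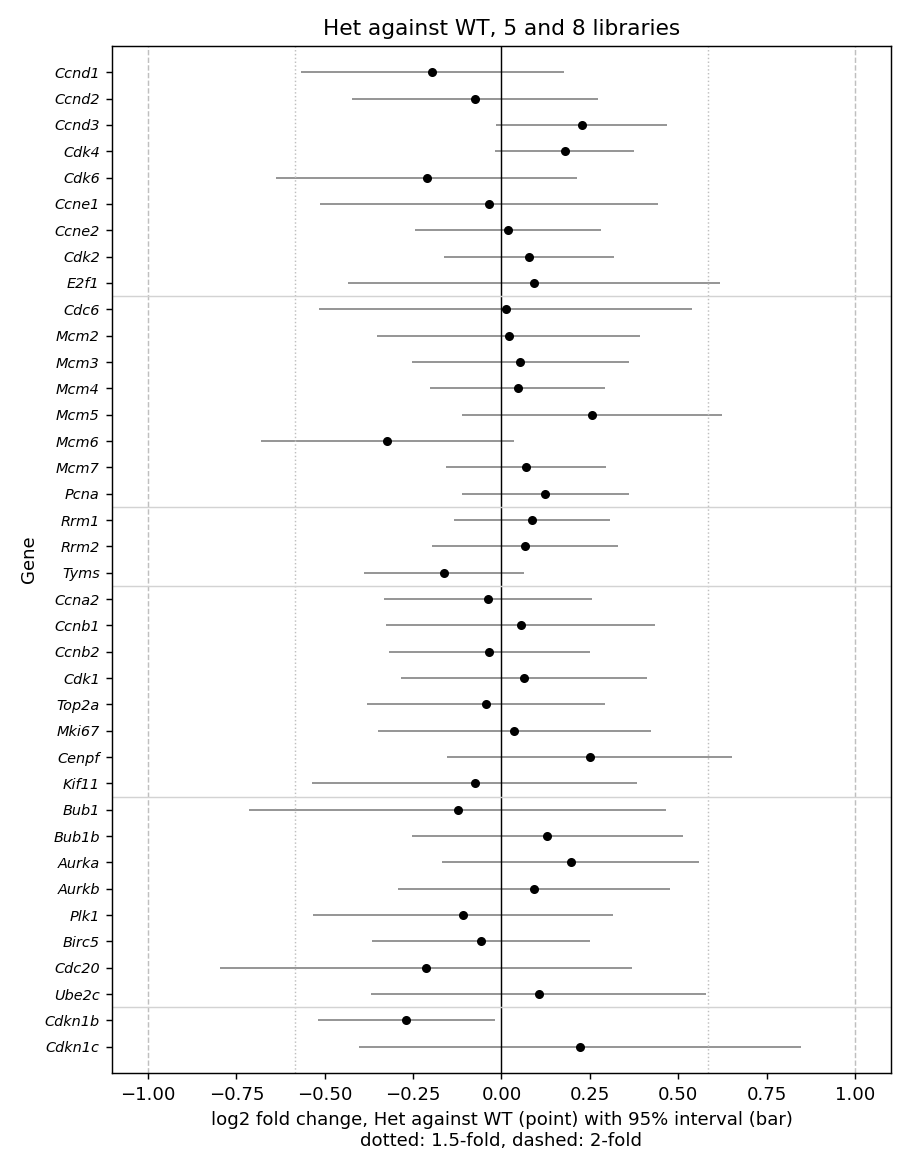
Log2 fold change of each cell cycle gene, Het against WT (point), with its 95% interval from edgeR (bar), 5 Het and 8 WT libraries. Genes are grouped by role, and dotted and dashed lines mark 1.5-fold and 2-fold. Every interval lies within 2-fold, and that of Cdkn1b is the 1 interval that does not include 0.

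Among the G1 cyclins, their kinases and E2f1, 5 had positive and 4 negative log2 fold changes (median 0.017), and none passed the test. Ccnd2 (ENSMUSG00000000184, chromosome 6, 127125162 to 127152193; positions here and below are on GRCm38) was at 8.58, 9.25, 8.93, 8.68 and 8.84 log2 CPM in Het 1-2, 4-2, 4-5, 5-5 and 5-6. In WT it ran from 8.38 to 9.46 with a median of 8.89, so that the Het values lay inside the WT range. Its log2 fold change was -0.08 ± 0.17 (SE, edgeR adjusted p = 0.949).

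Cdk4 (ENSMUSG00000006728, chromosome 10, 127063534 to 127067920) was at 7.59, 7.28, 7.45, 7.63 and 7.46 log2 CPM in the Het libraries in the same order, and at 7.11 to 7.46 (median 7.33) in WT. Its log2 fold change was 0.18 ± 0.09 (SE, edgeR adjusted p = 0.753), with a 95% interval of -0.02 to 0.38. Het 1-2, Het 5-5 and, narrowly, Het 5-6 lay above all WT libraries, and the others lay within the WT range. Ccnd3 (ENSMUSG00000034165, chromosome 17, 47505051 to 47599691) was at 3.70, 4.07, 4.06, 3.79 and 3.90 log2 CPM in Het and 3.44 to 3.96 (median 3.71) in WT. Its log2 fold change was 0.23 ± 0.12 (edgeR adjusted p = 0.741), and the difference was -0.06, 0.32 and 0.40 in prefixes 1, 4 and 5. For Ccnd3 the sign thus turned in prefix 1, which has 1 Het library.

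Ccnd1 and Cdk6 had negative differences, -0.20 ± 0.18 and -0.21 ± 0.20 on the log2 scale (SE, edgeR adjusted p = 0.850 and 0.862). The levels of Ccnd1 were 5.29, 6.05, 5.61, 5.25 and 5.33 log2 CPM in Het, and 5.19 to 6.36 (median 5.67) in WT. Those of Cdk6 were 6.76, 7.63, 7.00, 6.75 and 6.80 in Het, and 6.46 to 7.87 (median 7.17) in WT. For both genes Het 4-2 was the highest Het library and WT 4-3 the highest WT library. Cyclin E genes and their kinase were near 0: -0.04 ± 0.23 for Ccne1, 0.02 ± 0.13 for Ccne2 and 0.08 ± 0.11 for Cdk2. E2f1, the transcription factor that the cyclin-dependent kinases release, had 25 to 93 counts per library and a log2 fold change of 0.09 ± 0.25.

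Of the 8 replication licensing and fork genes, 7 had positive and 1 a negative log2 fold change (median 0.049), and none passed the test. Mcm2 to Mcm7 encode the 6 subunits of the helicase that licenses origins, and the most negative and the most positive difference of all 38 genes lay within this complex. Mcm6 (ENSMUSG00000026355, chromosome 1, 128331590 to 128359664) was at 2.83, 2.33, 2.85, 2.59 and 2.56 log2 CPM in Het, and at 2.32 to 3.39 (median 3.00) in WT. Its log2 fold change was -0.32 ± 0.17 (SE, edgeR adjusted p = 0.753), and it was -0.19, -0.21 and -0.42 in prefixes 1, 4 and 5. Each Het library lay below the WT median, and none lay below the lowest WT library, WT 4-1.

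Mcm5 (ENSMUSG00000005410, chromosome 8, 75109569 to 75128439) was at 3.35, 3.24, 3.20, 3.54 and 3.23 log2 CPM in Het, and at 2.20 to 3.67 (median 3.06) in WT. Its log2 fold change was 0.26 ± 0.18 (SE, edgeR adjusted p = 0.802). Here each Het library lay above the WT median, and the WT libraries spread more widely (SD 0.42, beside 0.14 in Het). Mcm2, Mcm3, Mcm4 and Mcm7 lay between 0.02 and 0.07 on the log2 scale. Pcna, the sliding clamp of DNA polymerase, had 0.12 ± 0.11, and Cdc6, which loads the helicase, had 0.01 ± 0.25 with 26 to 94 counts per library.

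Of the 3 nucleotide supply genes, Rrm1 and Rrm2, the subunits of ribonucleotide reductase, had 0.09 ± 0.11 and 0.07 ± 0.13, and Tyms -0.16 ± 0.11 (edgeR adjusted p = 0.797). Tyms was at 6.02, 6.27, 6.32, 6.22 and 6.18 log2 CPM in Het and 6.07 to 6.70 (median 6.38) in WT. All Het libraries lay below the WT median, and the difference was -0.18, -0.15 and -0.25 in prefixes 1, 4 and 5.

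Mitotic entry and chromosome genes split evenly, with 4 positive and 4 negative log2 fold changes (median 0.0014), and none passed the test. Mki67 (ENSMUSG00000031004, chromosome 7, 135689784 to 135716361) was at 2.85, 2.82, 2.92, 3.62 and 2.40 log2 CPM in Het, and at 2.59 to 3.37 (median 2.86) in WT. The highest and the lowest library of all 13 were both Het, 5-5 and 5-6. Means were 2.92 ± 0.44 (SD, n = 5) for Het and 2.92 ± 0.26 (SD, n = 8) for WT, and the log2 fold change was 0.04 ± 0.18 (SE, edgeR adjusted p = 0.980). Its 95% interval, 0.79-fold to 1.34-fold, leaves room for a change of up to about that size.

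Cenpf, a kinetochore protein, had the most positive value of this group, 0.25 ± 0.19 (SE, edgeR adjusted p = 0.830), with 2.91, 2.94, 3.06, 3.47 and 2.42 log2 CPM in Het and 2.31 to 3.42 (median 2.71) in WT. Cdk1, the kinase of mitotic entry, had 0.06 ± 0.17. Its cyclins Ccna2, Ccnb1 and Ccnb2 had -0.04 ± 0.14, 0.05 ± 0.18 and -0.03 ± 0.14. Top2a, the topoisomerase that untangles chromosomes, had -0.04 ± 0.16, and the spindle motor Kif11 -0.08 ± 0.22. For Cdk1, Ccnb1 and Mki67 the highest library was Het 5-5, and the Het values lay on both sides of the WT median.

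Spindle checkpoint and exit genes also split into 4 positive and 4 negative (median 0.017), and none passed the test. Among the kinases, Aurka had 0.20 ± 0.17, Aurkb 0.09 ± 0.18, Plk1 -0.11 ± 0.20, Bub1 -0.12 ± 0.28 and Bub1b 0.13 ± 0.18. The survivin gene Birc5, whose protein works with Aurkb, had -0.06 ± 0.15. Cdc20 and Ube2c, which act in the ubiquitin pathway that ends mitosis, had -0.21 ± 0.28 and 0.10 ± 0.23, with 27 to 91 and 50 to 109 counts per library. Adjusted p in this group ran from 0.849 to 0.956.

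The CDK inhibitors had opposite signs. Cdkn1b (ENSMUSG00000003031, chromosome 6, 134920401 to 134925513) was at 6.14, 6.10, 6.00, 5.92 and 5.98 log2 CPM in Het, and at 6.06 to 6.82 (median 6.21) in WT. All 5 Het libraries lay below the WT median, and 3 of them (4-5, 5-5 and 5-6) lay below each WT library. The log2 fold change was -0.27 ± 0.12 (SE; 95% interval -0.52 to -0.02), with an unadjusted p of 0.0361 and an edgeR adjusted p of 0.699, so Cdkn1b did not pass the threshold. It was -0.08, -0.28 and -0.34 in prefixes 1, 4 and 5.

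Cdkn1c (ENSMUSG00000037664, chromosome 7, 143458339 to 143461050) was the most variable of the 38, at 3.10, 4.20, 3.62, 3.26 and 2.03 log2 CPM in Het and at 2.52 to 3.98 (median 2.95) in WT. Both the highest library (4-2) and the lowest (5-6) of all 13 were Het, a range of 2.17. The log2 fold change was 0.22 ± 0.30 (SE, edgeR adjusted p = 0.904), with the widest interval of the 38, -0.40 to 0.85.

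Averaged over a role, the genotypes lay close together as well. The mean of the 8 mitotic entry and chromosome genes was 3.24 ± 0.24 log2 CPM (SD, n = 5) for Het and 3.21 ± 0.21 (SD, n = 8) for WT. That of the 8 licensing and fork genes was 3.21 ± 0.15 and 3.17 ± 0.19, and that of the 9 genes of G1 was 5.05 ± 0.12 and 5.03 ± 0.16. Each of these differences was smaller than the SD of either genotype.

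None of the other genes of the same machinery passed the test between genotypes. Of 75 further cell cycle genes listed by role, 74 were in the file and 73 were tested; Cdkn2a, with 3 counts in all, was not. edgeR called 0 of 73, beside the 0.0857% of all genes. At an unadjusted p under 0.05 there were 2 of 73, beside 6.9% of all genes. Signs were 38 positive and 35 negative, with a median of 0.0049. The 2 with the smallest p were Chek1, the DNA damage checkpoint kinase, with -0.34 ± 0.15 (3.28 ± 0.15 log2 CPM in Het, 3.59 ± 0.31 in WT, edgeR adjusted p = 0.699), and Cdc25c, a phosphatase that activates Cdk1, with -0.51 ± 0.24 (2.72 ± 0.42 and 3.19 ± 0.55, adjusted p = 0.719). Next was Anapc5, a subunit of the anaphase-promoting complex, with 0.18 ± 0.09 (adjusted p = 0.741). In the list of checkpoint and entry kinases and phosphatases, 3 of 10 were positive and 7 negative (median -0.11), and all 4 of the other CDK inhibitors tested were negative (median -0.10). The 18 pocket proteins, E2F and MuvB factors, which control transcription of the cycle's genes, had 11 positive and 7 negative values (median 0.016).

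The median spread among libraries of 1 genotype was near that of all genes tested. The SD within a genotype had a median of 0.309 on the log2 scale over the 38 genes, beside 0.298 for all genes tested, and it was more than 2 times the SD due to counting for 37 of 38, and for 78.1% of all genes tested. The median counting SD of the 38 was 0.098, and the share of all genes was not matched to them for count level. After Cdkn1c, Bub1 had the largest range, 2.04, between WT 1-3 and WT 4-3.

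**Figure D3:**
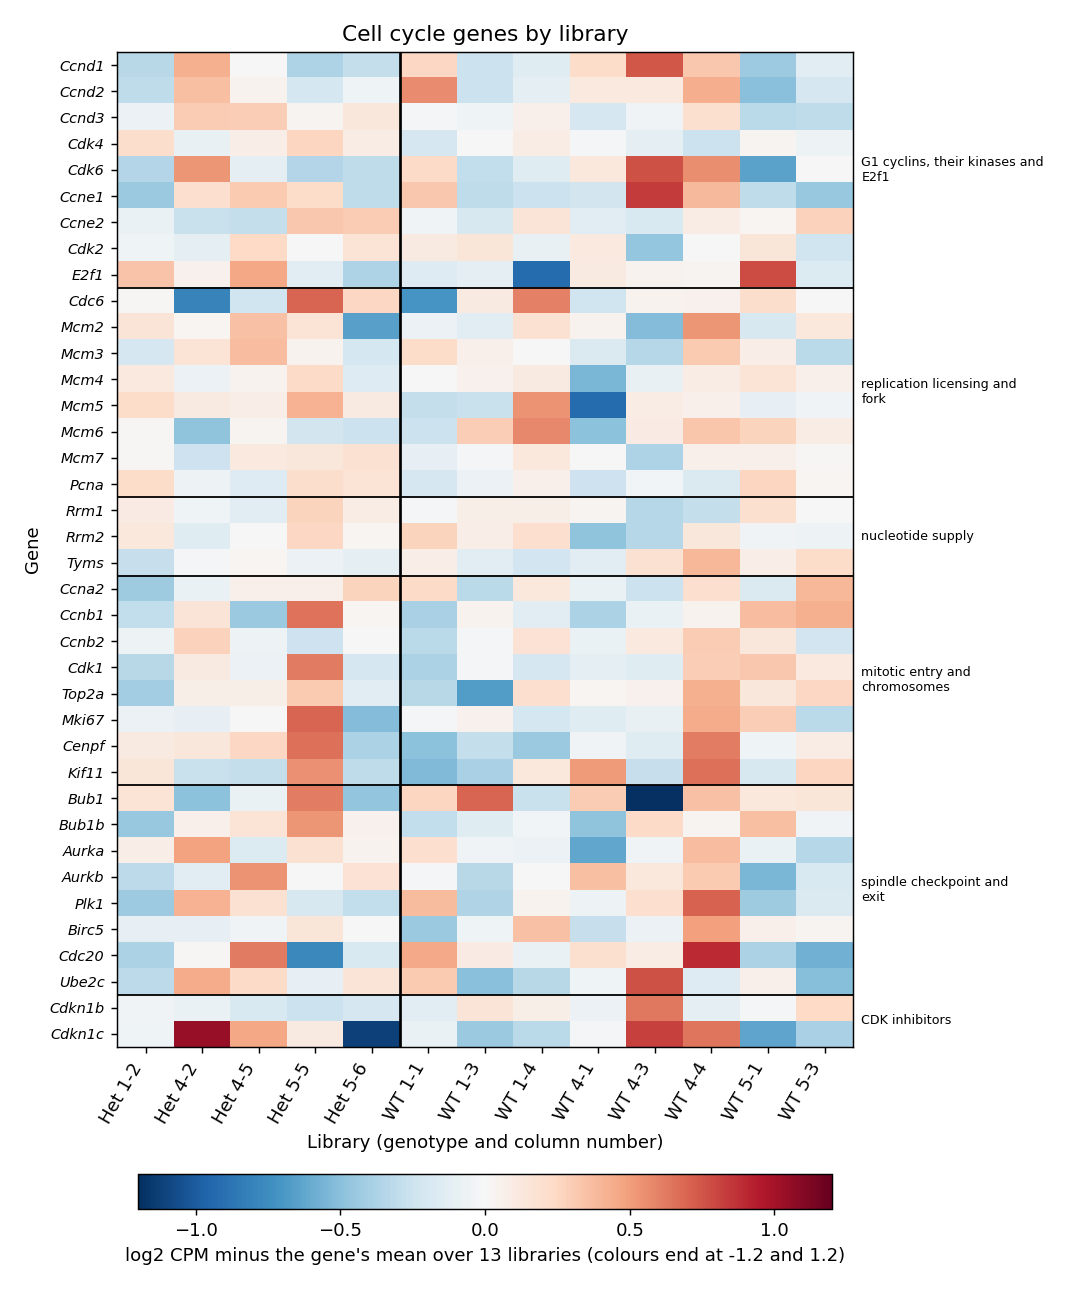
Level of each cell cycle gene (rows, by role) in each library (columns, 5 Het left of the line and 8 WT right of it), as log2 CPM minus the gene's mean over 13 libraries, with red above and blue below the mean. Ccnd1, Cdk6 and Cdkn1c are high in WT 4-3 and Het 4-2, and several mitotic genes are high in Het 5-5 and WT 4-4.

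The share of the 38 genes that differed by library prefix was near that of all genes. In an edgeR test of the prefix with genotype in the fit, 3 of 38 passed the threshold, beside 6.08% of all genes tested (992), so the share is near the background. They were Ccnd1 (edgeR adjusted p = 0.0186), Cdk6 (0.0300) and Cdkn1c (0.0147), and 11 of 38 had an unadjusted p under 0.05, beside 23% of all genes. All 3 were highest in prefix 4. Ccnd1 was at 5.50 ± 0.26 log2 CPM in prefix 1 (SD, n = 4), 5.96 ± 0.28 in prefix 4 (n = 5) and 5.32 ± 0.13 in prefix 5 (n = 4). Cdk6 was at 6.97 ± 0.26, 7.48 ± 0.35 and 6.78 ± 0.26, and Cdkn1c at 2.93 ± 0.19, 3.74 ± 0.41 and 2.64 ± 0.51. The range of prefix 4 overlapped that of prefix 1 for Ccnd1, that of prefix 5 for Cdkn1c and both for Cdk6.

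These calls depended on single libraries. Without Het 4-2, 0 of 38 were called (adjusted p = 0.0699, 0.112 and 0.0556 for Ccnd1, Cdk6 and Cdkn1c), and the share of all genes called fell to 2.42%. Without WT 5-1, Cdkn1c alone was called (0.0465), beside 1.73% of all genes. Leaving out Het 1-2, Het 5-5, WT 1-4, WT 4-3 or WT 4-4 also ended the call of Cdk6 (adjusted p from 0.0508 to 0.0772), so that 7 of the 13 libraries did so. Mki67 did not differ by prefix to the same degree, with 2.86 ± 0.11, 2.94 ± 0.24 and 2.96 ± 0.56 log2 CPM (edgeR adjusted p = 0.869). Some other measures moved with the prefix, though no marker list was tested by prefix. The summed level of 7 cervical loop markers was 237 to 304 CPM in prefix 1, 308 to 405 in prefix 4 and 183 to 221 in prefix 5, and that of 7 mesenchyme markers was 6316 to 8780, 6796 to 12118 and 4458 to 6412. Secretory ameloblast markers had the opposite order, with 191694 to 266848, 145267 to 241912 and 263603 to 287820 CPM. The other cell type lists had ranges that overlapped among all prefixes, such as maturation ameloblast markers with 35264 to 44859, 26776 to 54989 and 39610 to 55042 CPM. Y-linked genes had over 100 counts in 1 of 4 libraries of prefix 1, 1 of 5 of prefix 4 and 4 of 4 of prefix 5. With the Y-linked mean as a further term, added after seeing the data, 0 of 38 were called by prefix (0.123, 0.140 and 0.104), beside 0.0796% of all genes, and 5 of the 38 had an unadjusted p under 0.05, beside 14.5% of all genes. Since all libraries of prefix 5 had Y-linked counts, the prefix and the Y-linked level cannot be fully told apart by this fit. The Y-linked level was uneven by genotype too, with a median of 278 CPM (0 to 325) in Het and 0 (0 to 373) in WT. The part of the cell type markers in these prefix differences was not tested. Without the Y-linked term, 1 of the 73 other cell cycle genes was called by prefix, beside 6.08% of all genes. It was the spindle midzone gene Prc1 (edgeR adjusted p = 0.0275).

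**Figure D4:**
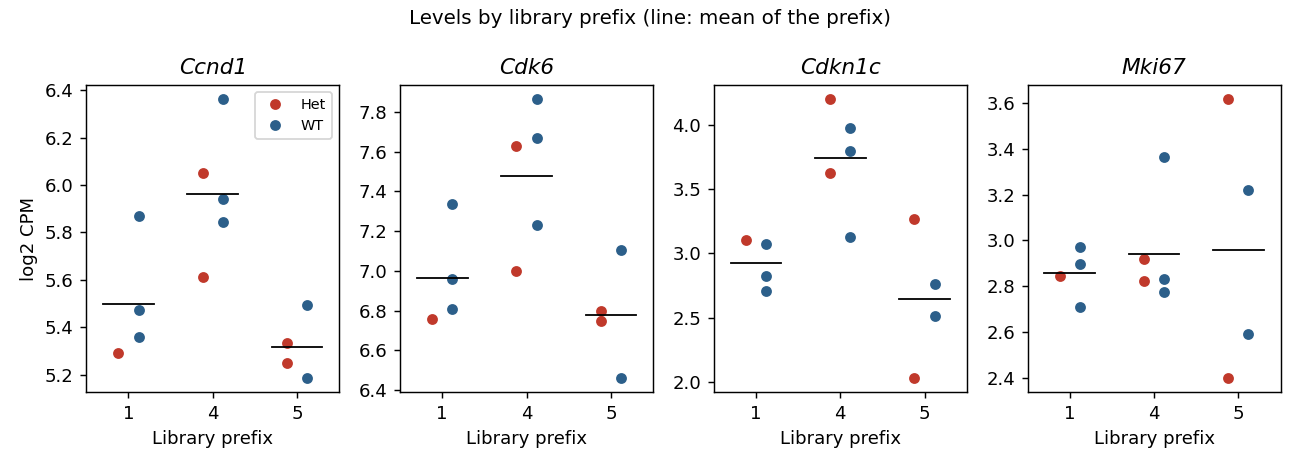
Log2 CPM of Ccnd1, Cdk6, Cdkn1c and Mki67 in each library by prefix (horizontal axis), with Het in red, WT in blue and a line at the mean of the prefix. The means of Ccnd1, Cdk6 and Cdkn1c are highest in prefix 4 (5.96, 7.48 and 3.74), while those of Mki67 lie between 2.86 and 2.96.

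Of the 16 mitotic genes, 11 were highest in WT 4-4 or Het 5-5, where 20.7% of all genes tested had their highest level. Of these, 6 were highest in WT 4-4 (Ccnb2, Top2a, Kif11, Plk1, Birc5 and Cdc20) and 5 in Het 5-5 (Ccnb1, Cdk1, Mki67, Cenpf and Bub1b), and the other 5 peaked in 5 further libraries. Both libraries were picked by these peaks, which in part fixes the share of 11 of 16. Het 5-5 was the lowest of the 13 libraries for Cdc20, at 0.25 log2 CPM. WT 4-4 also had the highest summed mesenchyme (12118 CPM) and osteoblast (1911 CPM) markers and the lowest secretory ameloblast markers (145267 CPM, next lowest 191694). Het 5-5 had the highest immune markers, 133 CPM, where the other 12 libraries had 61.9 to 106. The part of these cells in the mitotic peaks was not tested.

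Genes with a pattern like that of Mki67 were sought over the 13 libraries by Pearson's r of log2 CPM. With 100000 permutations and adjustment over 16327 genes, 0 of 37 other cell cycle genes were called, and 0% of all genes. The smallest p that these permutations can give is about 1e-05, at which 1 gene alone has an adjusted p of 0.163. A single gene could therefore not pass, which limits what the lack of calls shows. The smallest permutation p over all genes was 0.00016. At an unadjusted p under 0.05 there were 2 of 37, beside 4.49% of all genes: Cdk1 (r = 0.743, permutation p = 0.00376, adjusted p = 0.985) and Cenpf (r = 0.690, permutation p = 0.00865, adjusted p = 0.9999). By Spearman's rho, 3 of 37 had an unadjusted p under 0.05, beside 4.47% of all genes, and 0 were called. These were other genes: Mcm3 (rho = 0.610, permutation p = 0.030), Bub1 (rho = 0.577, permutation p = 0.043) and Mcm4 (rho = 0.566, permutation p = 0.047). The rho of Cdk1 and Cenpf was 0.522 (permutation p = 0.0705) and 0.467 (permutation p = 0.107). With prefix means removed, 5 of 37 had an unadjusted p under 0.05, beside 6.24% of all genes, and r was 0.871 for Cdk1 and 0.743 for Cenpf (permutation p = 0.00324 and 0.0161). Without Het 5-5 and WT 4-4, the 2 libraries farthest from the Mki67 median, r fell to 0.365 and 0.207, so both relations rest on those libraries. Top2a (r = 0.317) followed Mki67 less closely and Ccna2 had a negative r (-0.173), though no difference between these r was tested.

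Over the 37 genes, r was positive for 30, with a median of 0.161, beside 0.0010 for all genes. Without the 2 farthest libraries the median was 0.040, beside 0.017 for all genes, and r was positive for 20 of the 37. The share of all genes with a positive r was not counted. Among the 10 genes outside the set with the highest r were Rbp4 (0.850), Bank1 (0.839), Cd300a (0.834), Catsperz (0.834), Ccdc138 (0.828), Pde1a (0.828), Slc38a4 (0.818), Stap1 (0.816) and Sfrp4 (0.812), and their adjusted permutation p lay between 0.807 and 0.849. None of them passed the threshold, and none is among the 75 further cell cycle genes.

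**Figure D5:**
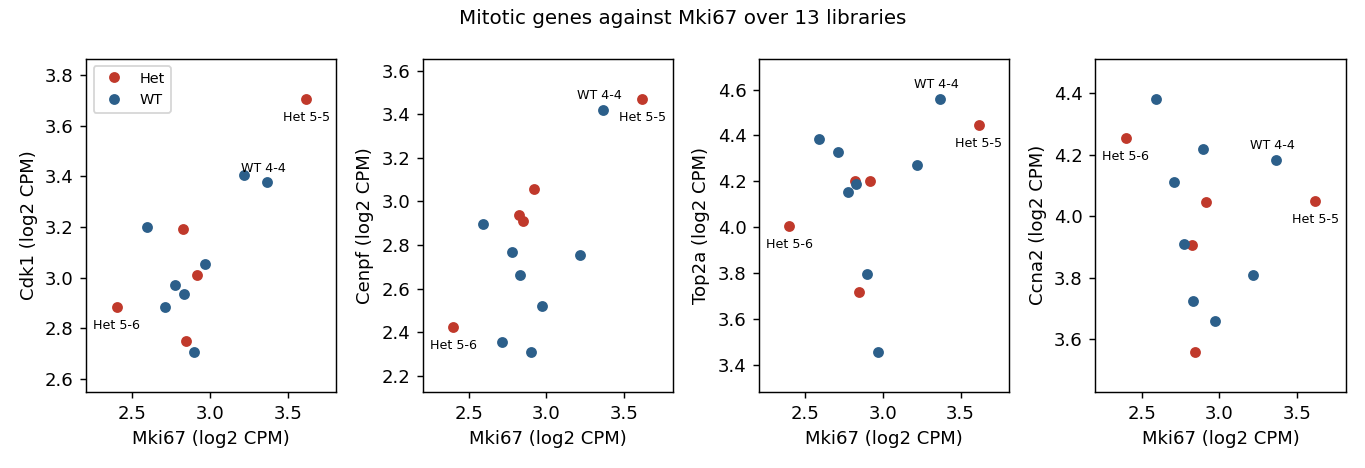
Log2 CPM of Cdk1, Cenpf, Top2a and Ccna2 (vertical axes) against that of Mki67 (horizontal axes) in 13 libraries, with Het in red and WT in blue. Het 5-5 and WT 4-4 lie at the right of each panel and carry the relations of Cdk1 and Cenpf, while Het 5-6 has the lowest Mki67 level.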

How the data were processed

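RNA-seq libraries from 5 Het and 8 WT enamel organs were prepared with an unstranded kit, per the labels' protocols. Per the submitters' processing notes, GRCm38 and STAR 2.5.2a were used, and DESeq2, edgeR and limma are listed with no stated role. The authors deposited raw counts, which were the input of every test, a filtered count table with the same counts, and a normalized signal (counts times 1 constant per library), which was used for no test. Columns were assigned to genotypes by name. Features that name no gene were left out (up to 0.000177% of the counts in any library).

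Genes were filtered (filterByExpr, count minimum 10), scaled with TMM factors and tested with edgeR 4.0.16 (R 4.3.3; robust quasi-likelihood fit), and p-values were adjusted by Benjamini-Hochberg over 16328 genes. SE came from the F statistic and 95% intervals from the t distribution with the fit's degrees of freedom. Log2 CPM used a prior count of 2. The scripts were tested on simulated data. DESeq2 1.42.0, limma-voom (3.58.1), other scalings, filters and terms, and fits without single libraries or prefixes were alternatives. No pair of the 78 library pairs agreed within sampling noise (lowest chi-square 11.1 per gene). Exon lengths came from GENCODE M21 on GRCm38. The genes and lists were chosen with earlier results of these data known. The text names all 38 genes, the 3 further cell cycle genes of smallest p and the 10 with the highest r with Mki67 (symbols not of the Gm or Rik form), of which 1 is not reported here; Prc1, LTO1 and the other overlap partners were named after their values were seen.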

Additional observations from a re-analysis of the deposited data

Results flagged for a closer look

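In 4 of 76 groups of values (38 genes in 2 genotypes), 1 library lay far from the others by Dixon's test, and chance flags about 1 group in 20. Bub1 in WT 4-3 was the lowest WT value at -0.063 log2 CPM (18 counts), with the next at 1.01. Cdk6 in Het 4-2 was the highest Het value at 7.63 log2 CPM (4702 counts), with the next at 7.00. Mcm4 in WT 4-1 was the lowest WT value at 3.62 log2 CPM (283 counts), with the next at 4.07. Mcm7 in WT 4-3 was the lowest WT value at 3.67 log2 CPM (261 counts), with the next at 3.94.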

How the results depend on the processing

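Over 24 alternatives, no cell cycle gene was called between Het and WT, and the further list also stayed at 0. Of 912 log2 fold changes, 839 kept their sign and 73, in 20 genes, did not. In each of the 20 genes the difference was smaller than its SE. With limma-voom the value was 0.016 for Ccne1, -0.0029 for Ccne2, -0.062 for Cdc6 and -0.013 for Ccnb1. With the prefix as a term it was -0.042 for Ccne2, -0.069 for Cdc6, -0.041 for Ccnb1 and -0.021 for Cdk1. With the Y-linked mean as a term it was 0.00059 for Ccnd2, 0.073 for Ccne1, -0.049 for Ccne2, -0.064 for Cdc6, -0.079 for Ccnb1 and -0.0037 for Cdk1. Without prefix 1 it was 0.028 for Ccnd2, -0.16 for E2f1, -0.019 for Mcm2 and 0.053 for Ccna2. Without prefix 4 it was 0.038 for Ccne1, -0.0088 for E2f1, -0.051 for Mcm2, -0.13 for Mcm3, 0.0048 for Top2a, 0.29 for Kif11 and 0.014 for Birc5. Without prefix 5 it was -0.16 for Ccne2, -0.35 for Cdc6, -0.0031 for Rrm2, -0.030 for Ccnb1, 0.022 for Ccnb2, -0.0034 for Cdk1, -0.075 for Mki67 and -0.0078 for Aurkb. With 1 library left out, the values of genes that changed sign ran from -0.188 to 0.0147 for Ccnd2, -0.113 to 0.119 for Ccne1, -0.0642 to 0.0935 for Ccne2, -0.015 to 0.253 for E2f1, -0.205 to 0.173 for Cdc6, -0.0636 to 0.153 for Mcm2, -0.0343 to 0.114 for Mcm3, -0.018 to 0.0901 for Mcm4, -0.116 to 0.056 for Ccna2, -0.132 to 0.171 for Ccnb1, -0.117 to 0.0249 for Ccnb2, -0.114 to 0.154 for Cdk1, -0.13 to 0.0488 for Top2a, -0.18 to 0.152 for Mki67, -0.249 to 0.0324 for Kif11, -0.0451 to 0.179 for Aurkb, -0.25 to 0.0099 for Plk1, -0.115 to 0.0203 for Birc5 and -0.0761 to 0.429 for Cdkn1c. The cause was not tested.

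The number of cell cycle genes called by prefix ran from 0 to 4 with 1 library left out, while the share of all genes called ran from 1.73% to 9.04%, and it was 0 with the Y-linked mean as a further term. It was 3 with RLE factors (6.03% of all genes), with no genotype term (5.62%) and with at least 1 CPM in 5 libraries (7.99%). The smallest adjusted p of the 38 genes between Het and WT ran from 0.450 to 0.993 over the alternatives that kept all libraries or left out a prefix. The count of all genes called ran from 0 to 74. No paired analysis was possible because no source used here pairs a Het library with a WT library. The fit with the prefix as a term called 0 of the 38 genes. Genes such as Cdc20, E2f1, Cdc6 and Bub1, with under 100 counts per library, had the widest counting error.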
